A study of Populus davidiana with 6 samples.

Results

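In leaves of the aspen Populus davidiana, 58 annotated genes were lower in every air-dried library than in any control library by the margin described here. They came from 15527 annotated genes expressed in the same control range and from 40537 gene identifiers in all. A gene was taken when at least 1 of its transcripts was annotated, its mean over the 3 controls was from 5 to under 500 FPKM, and its highest air-dried value was at most 0.7 times its lowest control value. FPKM, fragments per kilobase of transcript scaled by the library's mapped fragments, was summed over all transcripts listed for the gene. The members were thus chosen on the comparison itself, and their ratios are given as a description with no test.

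All plants were seedlings of Odae19, a cultivar labelled tolerant for drought sensitivity. They were grown in vitro on a sucrose medium with the synthetic auxin naphthalene acetic acid and were about 6 weeks old. The 3 control libraries carry no treatment in their titles. The 3 air-dried libraries came from plants pulled from the medium, washed in sterile water and then exposed to the open air for some 10 min, and the labels do not say whether controls were uprooted and washed too, so these steps and drying cannot be told apart. RNA came from leaf samples taken in triplicate, and nothing says that these were separate plants or cultures, so p-values measure the spread between these libraries alone, which may be technical.

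A leaf that loses water faster than it is supplied closes its stomata, and abscisic acid and other signals then change the transcription of many genes. The level of a messenger RNA falls when it is made more slowly or degraded faster, and within minutes the fall is bounded by how fast the existing molecules decay. In whole leaves, fewer cells of a type and less RNA per cell cannot be told apart. The files pair none of their identifiers with a gene name (0 names), so the members' functions are not given and the tissue could not be checked against marker genes. Only 2 identifiers are printed, and the other genes are identified by chromosome and position as the files give them, on a genome build that is not given in the sources used here.

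Control 3 and air-dried 1 limited the choice of genes most among the 6 libraries. Without control 3, 144 genes passed the rule, and 107 passed without air-dried 1. With both left out, 469 genes passed, among them all 58 members. Leaving out libraries can only loosen the ratio limit, so a rise in these counts and the keeping of members follow largely from the rule. Very short genes also differed in scale between libraries. In 324 annotated single-transcript genes spanning 190 to 230 bp, limits set after the values were seen, the lowest entry above 0 was 5.57 FPKM for control 1, 6.06 FPKM for control 2 and 4.81 FPKM for air-dried 1. The corresponding entries were 1.82 FPKM for control 3, 1.59 FPKM for air-dried 2 and 1.49 FPKM for air-dried 3. These entries rest on few genes, since each library listed only 25 to 29 of the 324 above 0 and the rest at 0.

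The lowered genes were a small share of the expressed annotated genes. The rule took 0.374% of the genes in range, whereas the mirrored rule, with every air-dried value above every control value by the same factor, took 202 genes or 1.3%. Of the genes past either rule, 22.3% were lower. This split depended on the libraries and the scale. Without control 3 and air-dried 1, 469 genes were lower and 413 higher (53.2% lower). With all libraries rescaled to one common sum of FPKM, 6 genes were lower and 63 higher (8.70% lower), and all 6 were among the 58. The sums so equalized ran from 1711808 FPKM in air-dried 3 to 4180878 FPKM in air-dried 2. Other scalings moved the split less. Median centring gave 67 lower and 185 higher (26.6% lower), and quantile normalization gave 73 and 187 (28.1% lower).

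**Figure D1:**
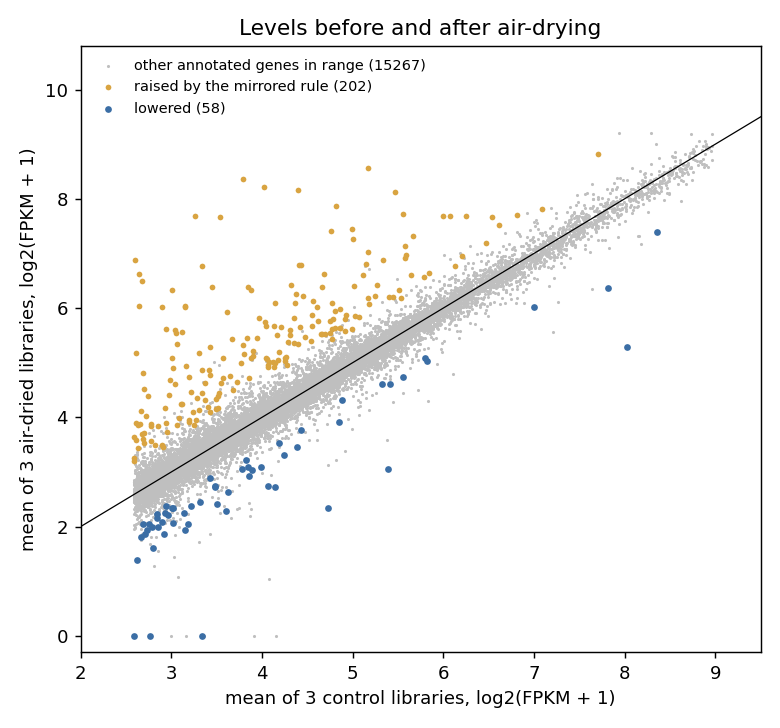
Mean level in the 3 air-dried libraries against the mean in the 3 controls, both as log2(FPKM + 1), for 15527 annotated genes with a control mean of 5 to under 500 FPKM. Points below the diagonal line were lower after air-drying: the 58 lowered genes are blue, the 202 genes of the mirrored rule are yellow and the others grey.

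Most of the differences were moderate. The air-dried mean was 0.146 to 0.663 times the control mean in the 55 members with an air-dried value above 0, with a median of 0.503, where the median over all genes in range was 1.00. It was at most 0.5 times the control mean in 25 of the 58 members, and at most 0.2 times in 6. In the mirrored set 133 of 202 genes had at least 2 times their control mean and 31 at least 5 times. Levels seldom approached 0, since 54 of 58 stayed at or above 1 FPKM in all 3 air-dried libraries. The 3 members just inside the limit had ratios of highest air-dried to lowest control of 0.6859, 0.6975 and 0.6999, and the 3 genes just outside had 0.7003, 0.7025 and 0.7035.

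**Figure D2:**
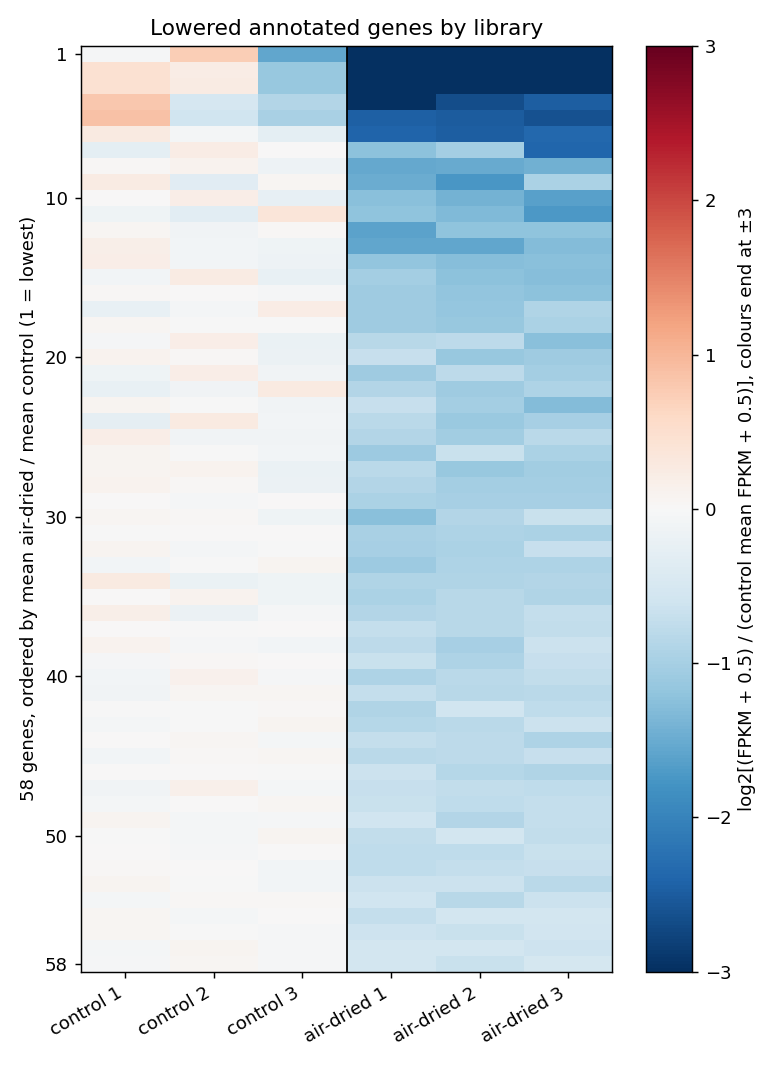
Each row is 1 of the 58 lowered genes and each column 1 library; colour gives log2 of the library's FPKM over the gene's control mean, with 0.5 FPKM added to both. Blue is lower and red higher. The 3 air-dried columns are blue throughout, as the rule requires, and the uppermost rows also differ among the controls.

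The genes with the lowest air-dried levels were 3 that were listed at 0 in every air-dried library. The first, POPTR_0014s00750 on the minus strand of chromosome 14 (705608 to 706214), measured 8.95, 15.6 and 2.75 FPKM in controls 1, 2 and 3. POPTR_0002s08840 on the minus strand of chromosome 2 (6212429 to 6212635) measured 8.19, 6.78 and 2.37 FPKM. The third, on the minus strand of chromosome 8 (7063140 to 7063355), measured 7.03, 6.06 and 2.01 FPKM. All 3 had a single annotated transcript, and control 3 was the lowest control in each. The genes on chromosomes 2 and 8 span 207 and 216 bp, and their control values lay at 1 to 1.47 times the lowest value above 0 listed in the same library for genes of that length. Such values are near the smallest step the files show at this length, a listed 0 can be a failed estimate, and no fold change is given for these genes.

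Among genes still detected after drying, 3 had an air-dried mean under 0.2 times the control mean. The clearest was a minus-strand gene of chromosome 8 (8497300 to 8498501) with a single annotated transcript. Its levels were 50, 39.7 and 33.6 FPKM in control leaves and 7.34, 6.98 and 7.62 FPKM in the air-dried libraries. The groups were far apart, and the air-dried libraries differed by less than 1 FPKM. Its mean was 41.1 ± 8.32 FPKM in control leaves and 7.31 ± 0.321 FPKM in dried leaves (SD, n = 3), 5.62-fold lower.

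A plus-strand gene of chromosome 2 (22451210 to 22452035) had the lowest ratio above 0 when all 3 controls were averaged. Its levels were 456, 182 and 140 FPKM in control leaves and 27.2, 40.5 and 46.0 FPKM in the air-dried libraries. Control 1 stood well above the other controls, and the mean of 259 ± 171 FPKM against 37.9 ± 9.67 FPKM (SD, n = 3) was 6.84-fold lower after drying. Without control 1 the difference was 4.25-fold, and the chromosome 8 gene, at 5.01-fold, then had the lowest ratio above 0. The annotated transcript of the chromosome 2 gene made up 0.10% of that gene's control FPKM. An assembled transcript spanning 358 bp held most of it, with 419, 147 and 119 FPKM in control leaves and 20.5, 34.9 and 38.4 FPKM in dried leaves. A second assembled transcript, covering the whole 826 bp, was lower too, with 37.1, 34.2 and 20.9 against 6.66, 5.55 and 7.56 FPKM.

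The third was a minus-strand gene of chromosome 9 (10463194 to 10463501) spanning 308 bp. Its levels were 47.0, 16.7 and 12.8 FPKM in control leaves and 4.28, 4.08 and 3.76 FPKM in dried leaves. Here too control 1 was the high library, whereas the air-dried libraries lay close together. The means differed 6.31-fold, or 3.65-fold without control 1. All 3 controls lay above all 3 air-dried libraries, as the rule requires of every member. The control SD of these genes and of the 3 listed at 0 ranged from 20.3% to 73.5% of the mean, with the lowest value in the gene on chromosome 8 (8497300 to 8498501).

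**Figure D3:**
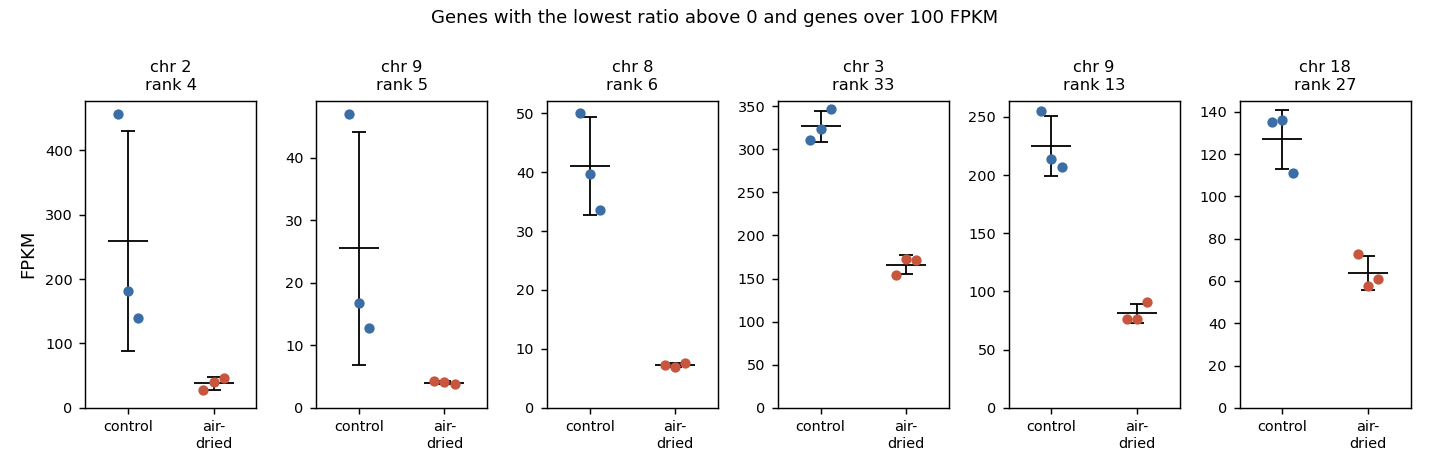
FPKM in each of the 3 control (blue) and 3 air-dried (red) libraries for the 3 genes with the lowest ratio above 0 (ranks 4 to 6) and the other 3 genes over 100 FPKM in the controls. Bars are means with SD (n = 3); each panel has its own FPKM axis from 0, and control 1 is the leftmost control point, far above the others in the panels of ranks 4 and 5.

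A group of 4 members was abundant, with control means of 100 FPKM or more. The highest was a plus-strand gene of chromosome 3 (12057217 to 12062486), at 311, 324 and 347 FPKM in control leaves and 154, 173 and 172 FPKM in dried leaves. Its level was 327 ± 18.0 FPKM against 166 ± 11 FPKM (SD, n = 3), 1.97-fold lower, and the annotated transcript carried 99.9% of the control value. Next after the gene on chromosome 2 described above came a single-transcript gene of chromosome 9, minus strand (3195489 to 3196380), at 255, 214 and 207 FPKM in control leaves and 76.5, 76.6 and 90.8 FPKM in dried leaves. This was the largest difference among the abundant genes whose controls lay close together, 2.77-fold. The fourth, on the plus strand of chromosome 18 (1340429 to 1343636), measured 135, 136 and 111 FPKM against 72.6, 57.5 and 61.0 FPKM, a 2.00-fold difference.

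These abundant genes held much of the summed level of the members. All 58 together summed to 1984, 1657 and 1550 FPKM in controls 1, 2 and 3 and to 726, 731 and 758 FPKM in air-dried 1, 2 and 3. The 4 abundant genes supplied 1156, 857 and 805 FPKM of the control sums and 330, 348 and 370 FPKM of the air-dried sums. Most members were expressed at low levels, 28 with a control mean from 5 to under 10 FPKM and 24 from 10 to under 50 FPKM. The rule took 0.683% and 0.268% of the annotated genes in these classes, 0.144% of those from 50 to under 100 FPKM and 0.365% of those at 100 FPKM or more. The median control mean was 10.2 FPKM in the members and 17.0 FPKM in all annotated genes in range.

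At middle and low levels the clearest examples had spreads that were small beside the difference between the groups. A minus-strand gene of chromosome 5 (21253478 to 21255127) measured 17.2, 18.0 and 14.9 FPKM in control leaves and 5.39, 5.55 and 5.85 FPKM in dried leaves, 2.98-fold lower. A plus-strand gene of chromosome 6 (11270104 to 11270873) measured 10.6, 10.3 and 10.1 FPKM against 4.62, 4.24 and 4.07 FPKM, 2.40-fold lower. On chromosome 14 (8328356 to 8330354, minus strand) a gene measured 11.2, 12.9 and 9.37 FPKM against 4.37, 3.90 and 3.30 FPKM, 2.89-fold lower. In each of these the lowest control exceeded the highest air-dried value by more than 2 times.

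Several other members were near 2-fold lower with little scatter. The tightest was on the minus strand of chromosome 5 (4002022 to 4006779), with 14.8, 14.9 and 15.0 FPKM in control leaves and 7.39, 7.55 and 7.54 FPKM in dried leaves. A plus-strand gene of chromosome 19 (4213661 to 4217341) measured 28.4, 27.3 and 28.1 FPKM against 14.3, 13.9 and 13.8 FPKM. Another gene of chromosome 19 (14238401 to 14241203, plus strand) measured 11.7, 11.2 and 11.2 FPKM against 5.13, 4.91 and 5.57 FPKM. In these genes the libraries of each group differed by far less than the groups did.

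Members with higher levels and smaller differences included a minus-strand gene of chromosome 4 (9900948 to 9902935). Its levels were 56.1, 55.5 and 54.9 FPKM in control leaves and 35.3, 30.6 and 29.7 FPKM in dried leaves, 1.74-fold lower. On the minus strand of chromosome 10 (6622396 to 6626285) a gene measured 41.5, 42.9 and 40.1 FPKM against 25.1, 23.7 and 21.7 FPKM, 1.76-fold lower. In both of these genes air-dried 1 was the highest air-dried library. The smallest difference of means, 1.51-fold, was that of a gene on chromosome 3 (11107751 to 11111356, plus strand) with 20 listed transcripts.

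The spread between control libraries was small in most members, as the rule favours. The control SD was under 10% of the mean in 34 of 58 and over 50% in 5, and its median was 7.22% against 9.05% over all genes in range. The lowest control was control 3 in 28 members, control 1 in 16 and control 2 in 14. Over all genes in range these shares were 35.7%, 41.7% and 22.6%. The highest air-dried library was air-dried 1 in 23, air-dried 3 in 22 and air-dried 2 in 10 of the 55 members above 0, where these shares were 38.9%, 32.2% and 28.9% over all genes in range.

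In a test over all expressed genes, nearly every member was called lower, which the choice of members largely fixes. Limma on log2(FPKM + 1) with Benjamini-Hochberg adjustment called 157 of 22559 tested genes lower at an adjusted p under 0.05 (0.696%), and 56 of the 58 members, all of which were tested. The median log2 difference was −0.85 over the members and 0.0037 over all genes tested. The exceptions were the 308 bp gene on chromosome 9, at −2.17 (SE 0.452), and a 647 bp gene on chromosome 5 (1333965 to 1334611), at −1.30 (SE 0.298). The latter measured 4.11, 6.18 and 5.24 FPKM in control leaves and 1.91, 2.32 and 0.598 FPKM in dried leaves. The count of 157 was 54 and 46 without control 1 and 2 and 86, 61 and 42 without air-dried 1, 2 and 3. The count of 56 was 36, 29 and 43 without control 1, 2 and 3, and 38, 34 and 29 without air-dried 1, 2 and 3.

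The other 101 genes called lower missed the rule for different reasons. Of these, 63 were annotated and in range but had a ratio of highest air-dried to lowest control over 0.7. A further 20 annotated genes had a control mean under 5 FPKM, 1 was at 500 FPKM or more, and 17 had no annotated transcript. Above the upper limit, 1 of 180 annotated genes met the ratio. Loci with no annotated transcript met it in 23 of 840 cases in the same control range (2.74%, against 0.374% of annotated genes).

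Whether the difference carries over to libraries that did not choose the genes was examined by leaving out 1 control and 1 air-dried library of the same number. The other 4 libraries chose genes by the same rule, and the left-out pair was then read. Genes chosen without replicate 1 numbered 144, of which 138 had a value above 0 in control 1. In 86 of these air-dried 1 was at most 0.7 times control 1 (62.3%), where 3.64% of the annotated genes in range met that ratio. Without replicate 2 the share was 70 of 91 (76.9%, against 8.05%), and without replicate 3, where 188 genes were chosen and 180 had a value above 0 in control 3, it was 87 of 180 (48.3%, against 2.03%).

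The left-out pair thus met the limit far more often among chosen genes than among all genes in range, in each of the 3 choices, though this share was not tested. The median ratio in the left-out pair was 0.618, 0.554 and 0.717 for replicates 1, 2 and 3, where all genes in range had medians of 1.01, 0.984 and 1.02. Among the chosen genes with a value above 0 in the left-out control, the air-dried library was below that control in 120 of 138 (87.0%), 88 of 91 (96.7%) and 135 of 180 (75.0%), against 46.2%, 53.5% and 44.4% of all genes in range. The 3 choices overlap, since any pair of them shares libraries, and the shared numbers are not known to mark pairs of plants. They held 56, 55 and 58 of the 58 members. A member meets the limit in any left-out pair by definition, since the rule that made it a member used all 6 libraries. The shares therefore describe the genes chosen in 4 libraries and say nothing further about the 58. The left-out libraries may be technical repeats of the others, so the shares do not show that the difference carries over to other plants.

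**Figure D4:**
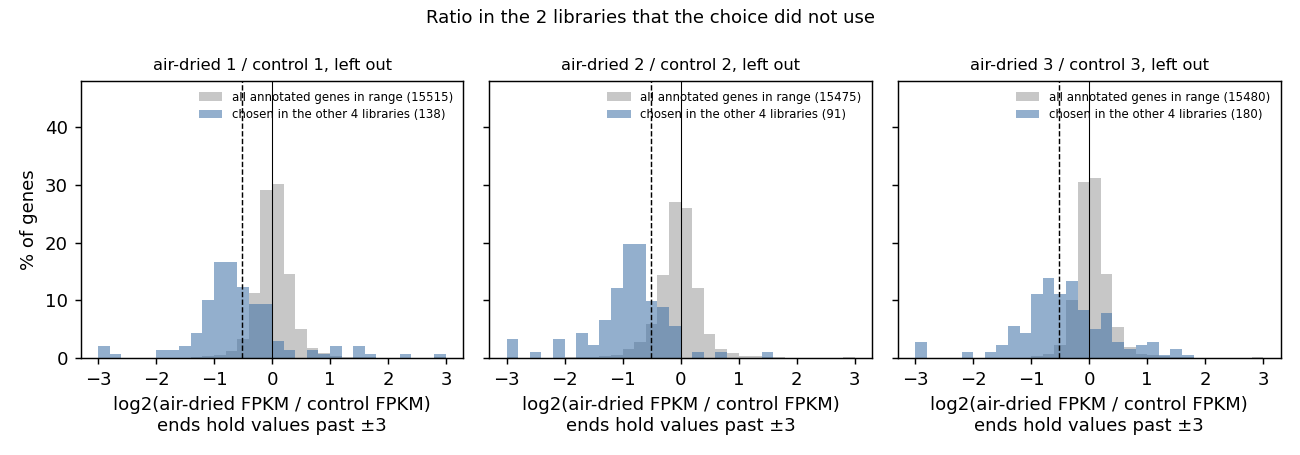
Share of genes (%) by log2 of air-dried over control FPKM in the pair of libraries left out, for genes chosen in the other 4 libraries (blue) and all annotated genes in range (grey); the dashed line is a ratio of 0.7 and the end bins hold more extreme values. The blue distributions lie left of the grey ones in all 3 panels, with 62.3%, 76.9% and 48.3% of chosen genes with a left-out control value above 0 at or below the dashed line.

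The transcripts behind these totals varied. A single transcript was listed for 23 members and several for 35. The annotated transcripts supplied over 90% of the control FPKM in 12 of the 35, under 10% in 5 and an intermediate share in 18. Both the annotated and the assembled transcripts summed to at least 1 FPKM in the controls in 17 of the 35. In 14 of these 17 both sums were lower after drying. The sums add up to the gene total that the rule used, so their direction follows largely from the choice of members. The counts of 12, 5, 18 and 14 are given as a description, with no share over all genes in range set beside them. With annotated transcripts alone 51 genes passed the rule, of which 36 were among the 58.

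**Figure D5:**
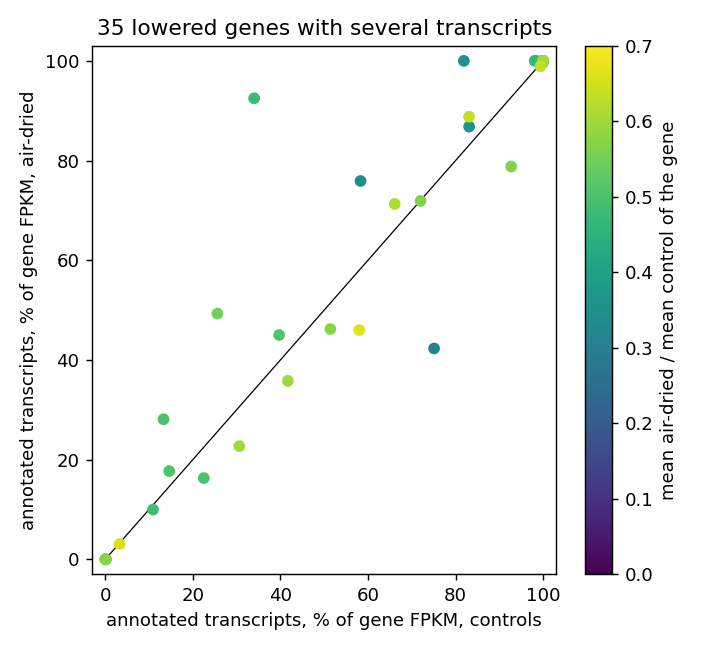
Share of a gene's FPKM that came from its annotated transcripts, in the air-dried libraries (%) against the controls (%), for the 35 lowered genes with several transcripts; colour gives the gene's ratio of air-dried to control mean. In the controls 12 genes exceed 90%, 5 are under 10% and 18 lie between; the diagonal marks equal shares.

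In some members the transcripts did not move alike. A plus-strand gene of chromosome 8 (13301126 to 13307405) with 8 transcripts totalled 55.6, 53.7 and 55.2 FPKM in control leaves and 32.3, 32.2 and 34.5 FPKM in dried leaves. Its annotated transcript measured 9.84, 17.7 and 22.7 FPKM in control leaves and 0.311, 10.2 and 11.9 FPKM in dried leaves. An assembled transcript spanning 6145 bp measured 8.66, 11.9 and 12.1 FPKM against 10.1, 13.2 and 15.8 FPKM, so its groups overlapped and its limma log2 difference was 0.23 (SE 0.211). The totals of this gene were steady while its transcripts varied between libraries of 1 group.

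The transcript with the highest mean differed between control and air-dried leaves in 6 of the 35 members with several transcripts (17.1%, against 10.6% of such genes in range). The gene just described was 1 of the 6. In another, on the minus strand of chromosome 9 (10586140 to 10588621), the leading control transcript was assembled and measured 5.61 and 5.34 FPKM in controls 1 and 2. In control 3 its value was under 0.001 FPKM, and an annotated transcript held 4.87 FPKM instead. The change of leading transcript there was seen between control libraries as well as between groups.

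Tests of single transcripts called few of them. Limma called 36 of 41109 transcripts lower (0.0876%) and 320 higher (0.778%). Of the 36, 15 were among the 85 tested transcripts of members. They belonged to 15 members, 14 were annotated and 9 were the sole transcript of their gene. Since these transcripts sum to the gene totals that the rule used, the direction of their calls follows largely from the choice of members. An estimate above 0 was found for 5 of the 85. Leaving out 1 library left between 1 and 7 of the members' transcripts called, with 2, 1 and 7 without control 1, 2 and 3 and 4, 1 and 1 without air-dried 1, 2 and 3, and 0 were called with the replicate number as a block.

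The members' median span and number of transcripts were below those of all genes in range. Their genomic span, introns included, had a median of 2448 bp against 3952 bp, and 11 of 58 (18.97%) spanned under 1000 bp against 4.70% of genes in range. A single transcript was listed for 39.7% against 16.3%, and the median number of transcripts was 2 against 4. The 202 genes of the mirrored rule were also short, with a median of 1968 bp and a single transcript in 49.5%. These are counts beside a background, without a test.

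The ratios of short and long members are given as a description, since the rule was set on the highest and lowest libraries and a gene with a wide spread needs a lower ratio of means to pass it. The 11 members under 1000 bp had ratios from 0 to 0.539 with a median of 0.311, and the 47 longer ones from 0.178 to 0.663 with a median of 0.508. Over the 55 members above 0, the rank correlation of span with the ratio was 0.46, which describes genes that share the same 6 libraries. The rank correlation of control level with the ratio was 0.058. The shorter members also varied more between controls, with a median SD of 19.98% of the mean against 5.99%. Values of very short genes differed in scale between libraries, as given above, and the part of this in the pattern was not tested. With genes under 400 bp left aside, 55 members remained.

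The members lay on 16 of the 19 chromosomes and on no unplaced scaffold (0 of 58). Chromosomes 4 and 5 held 7 each and chromosomes 3 and 9 held 6 each, which was 0.826%, 0.653%, 0.701% and 0.805% of the genes in range there. The share over all genes in range was 0.374%. Among chromosomes with a member it was lowest on chromosome 6 (2 of 1219, 0.164%) and chromosome 1 (3 of 1809, 0.166%). These shares were not tested. The minus strand held 33 and the plus strand 25 (43.1% plus, against 49.88% of genes in range). No member was next to another (0 of 116 flanking genes), and the closest pair, on chromosome 9, was 122638 bp apart. Members were only 58 of 40537 gene identifiers, so this count of 0 says little about how they are placed.

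Among the genes beside the members, the shares called by limma were near those of all tested genes. Of the 116 nearest genes that did not overlap a member, 63 were tested. Limma called 0 of them lower, against 0.696% of all tested genes, and 3 higher (4.76%, against 3.61%). At an unadjusted limma p under 0.05, 7 of the 63 were lower, a larger share than the 5.99% of all tested genes. Their median log2 difference was −0.050, and 38 of 63 (60.3%) had an estimate below 0, against 49.2% of all tested genes.

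A few members shared their position with other genes. Another gene overlapped 6 of the 58, and the library kit does not mark strand, so reads of overlapping genes cannot be told apart. Limma called none of the 6 tested overlapping genes (0 lower, 0 higher), where it called 0.696% of all tested genes lower and 3.61% higher. So few genes cannot be told apart from those shares. An unadjusted limma p under 0.05 was found for 2 of the 6, with no share over all genes set beside it. Of the 58 identifiers, 4 joined several annotated loci into 1 locus. The longest was on the minus strand of chromosome 4 (17538339 to 17561135), with a total of 14.5, 12.5 and 20.3 FPKM in control leaves and 6.54, 6.05 and 4.43 FPKM in dried leaves. Its leading annotated transcript measured 12.4, 6.07 and 20.3 FPKM against 6.54, 6.05 and 4.22 FPKM, so that for this transcript alone the groups overlapped. A gene lying within this locus on the same strand measured 33.0, 32.0 and 11.7 FPKM in control leaves and 11.5, 7.74 and 4.03 FPKM in dried leaves, and limma did not call it (log2 difference −1.57).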

How the data were processed

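Poly(A) RNA libraries (TruSeq, paired ends of 100 bp, Illumina HiSeq, per the labels' protocols) were analysed, 3 control and 3 air-dried, grouped by title. The deposited values are FPKM per transcript, per the file headers. FastQC, TopHat and Cufflinks stand in the submitters' processing notes, with neither version nor role. The sources used here give no build, annotation version or filter. FPKM carries no counts, so depth is unknown and limits the precision of low values.

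FPKM was summed over the transcripts of each identifier. Genes reaching 1 FPKM in 3 or more of the 6 libraries entered limma 3.58.1 (R 4.3.3, eBayes with trend, 2-sided) on log2(FPKM + 1), fitted on group alone, with Benjamini-Hochberg adjustment, and transcripts likewise. This scale understates the change of low genes. The limma step was tested on simulated data. Medians and counts used Python 3.11.15.

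The members and lists were chosen with earlier results of these data known. The naming rule took the 2 members with the lowest ratio of means. With 3 tied at 0, those with the higher control mean were taken, and the genes given by position were chosen after their values were seen. Gene lists and cell type markers needed names and were not used. Alternatives changed the ratio limit, level range, transcripts summed, scaling, pseudocount, filter, block, weights and libraries.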

Additional observations from a re-analysis of the deposited data

How the results depend on the processing

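Of the alternatives, leaving out control 3 and air-dried 1 together, setting a span limit and the other ratio limits for left-out pairs were chosen after the data were seen, as were the folds without control 1. The count of 58 genes was 13, 23 and 132 at ratio limits of 0.5, 0.6 and 0.8. It was 115 with control means from 1 FPKM, 30 from 10 FPKM and 6 with libraries rescaled to one common sum. It was 469 without control 3 and air-dried 1, and 66 to 144 with 1 library left out. Fewer libraries can only loosen the ratio limit, so the rise in these counts follows largely from the rule. Annotated transcripts alone gave 51, median centring 67 and quantile normalization 73. The count of 157 lower genes was 786 with library weights, 85 at a mean of at least 5 FPKM, 543 without control 3 and air-dried 1 and 42 to 120 with 1 library left out; other scalings, pseudocounts and no filter gave 147 to 194. Members called lower numbered 29 to 43 of 58 with 1 library left out. Transcripts called lower numbered 626 without control 3 and air-dried 1 and 2 to 22 with 1 library left out. In the left-out pairs, ratio limits of 0.6 and 0.8 moved the shares to between 46.7% and 74.3%. The cause was not tested for any of these.

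With the replicate block, 60 genes, 32 members and 1 transcript were called lower, and 0 of the members' 15 transcripts. Deviations of same-numbered samples correlated at 0.238, −0.146 and 0.123 across genes, and some samples correlated best with a sample of another number, so the numbers are not shown to pair the samples.

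POPTR_0014s00750 and POPTR_0002s08840, whose direction is fixed by air-dried values of 0, both missed the limma threshold with a pseudocount of 5 and without control 1, control 2 or any 1 air-dried library (adjusted p up to 0.121 and 0.0785), and POPTR_0014s00750 also with the replicate block (0.0687).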
